A study of Danio rerio with 30 samples.

Results

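Cytochromes P450 of families 2 and 3 (CYP), UDP-glucuronosyltransferases (UGT), cytosolic sulfotransferases (SULT) and glutathione transferases (GST) carry out much of the chemistry by which a vertebrate alters foreign compounds. In the larval zebrafish libraries described here their genes were picked by name alone: the symbol had to begin with cyp2 or cyp3 and a letter, with ugt and the family number 1, 2 or 5, with sult and a family number from 1 to 6, or with gst and a letter. Of 31846 gene symbols 108 matched, and 88 of these had at least 10 reads in at least 3 of the 30 libraries: 39 CYP, 16 UGT, 16 SULT and 17 GST genes. The 20 left out had between 3 and 134 reads over all libraries together. Closest to the limit on the inside were cyp2u1 and gstp2 with 3 libraries and cyp2ae1 and cyp2k20 with 4. Just outside were cyp2aa9, ugt5a2 and ugt5c2 with 2 libraries and cyp2x12 with 1. Those 4 members just inside the limit also failed the filter of the statistical test, so 84 members were tested.

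Total RNA of entire larvae, wild type of strain AB and collected at 120 hpf (hours after fertilization), went into the libraries. Larvae were labelled Control or treated with a paraben, an ester of 4-hydroxybenzoic acid used as a preservative: methylparaben (MtP), ethylparaben (EtP) or propylparaben (PrP), whose ester alkyl chains are of different length. Each compound had groups named BMD5, BMD5/10 and BMD5/50, whose concentrations the labels do not state. For that reason compounds are compared at the same dose name and not at the same concentration. Each of the 10 groups had 3 libraries numbered 1 to 3. No label ties these to different clutches. The p-values therefore reflect the spread among these libraries alone, which may be technical. Because the RNA is from whole bodies, fewer cells of an organ and less RNA per cell cannot be told apart. Libraries held 9711814 to 24468093 reads, of which the 88 members took 0.0678 to 0.160%.

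A phase I enzyme adds or exposes a reactive group on its substrate, and a P450 does this with a heme iron and electrons passed on by cytochrome P450 reductase. Phase II enzymes then attach a bulky polar group: UGTs glucuronic acid from UDP-glucuronic acid, SULTs a sulfonate from the donor PAPS, and GSTs the tripeptide glutathione. In mammals parabens are split by carboxylesterases, and the parent ester and the free acid are excreted largely as conjugates of glucuronic acid, sulfate or glycine. Liver and intestine are the main sites of these enzymes, although single members serve other ends, such as the brain sulfotransferase Sult4a1 or the vitamin D hydroxylase Cyp2r1. Many of the zebrafish genes lie in tandem arrays of related genes. Between close copies reads can be split in ways that the deposited counts do not show. Sequences of the members were not compared here.

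In Control larvae GST transcripts were by far the most abundant of the 4 classes. Levels are compared between genes in TPM, a unit that corrects for transcript length. The 17 GST genes summed to 441 ± 21.4 TPM (SD, n = 3), the 39 CYP genes to 148 ± 15.02, the 16 SULT genes to 70.6 ± 7.20 and the 16 UGT genes to 36.6 ± 4.28. A few genes carried much of the level in each class: the top 3 held 63.4% of the GST, 56.7% of the CYP, 64.8% of the SULT and 47.6% of the UGT total.

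**Figure D1:**
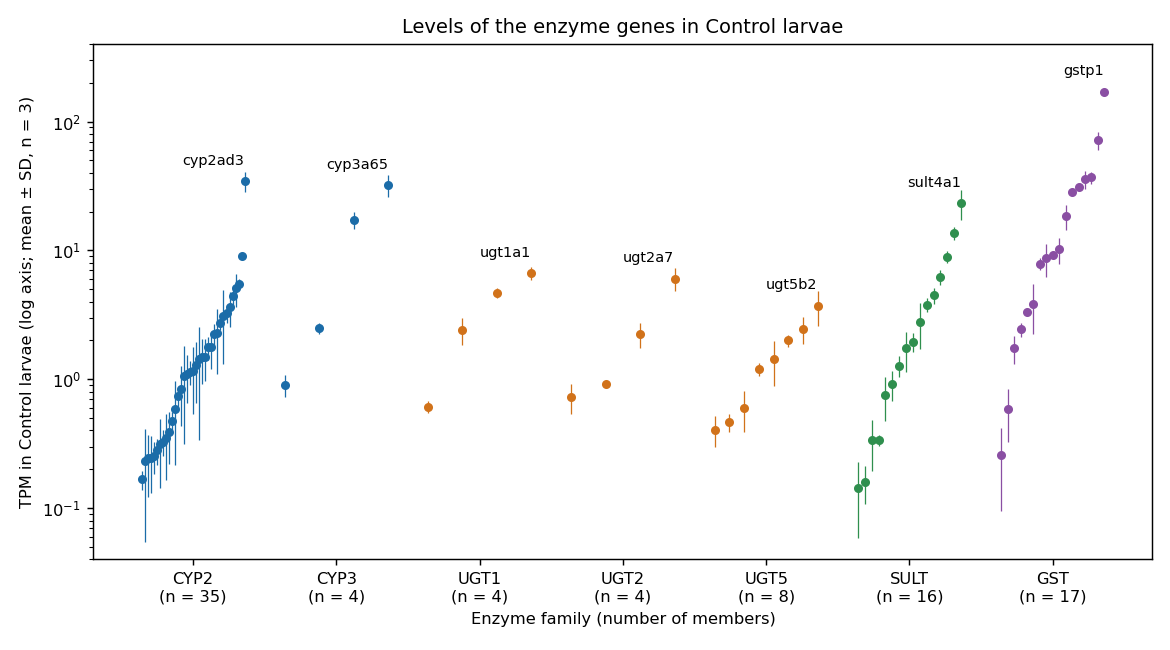
Level of each of the 88 members in Control larvae in TPM on a log axis (points are means of 3 libraries, bars SD), ordered within a family, with the highest gene of each family named. GST genes reach the highest levels, led by gstp1 at 171 TPM, while 15 of 39 CYP, 6 of 16 UGT, 6 of 16 SULT and 2 of 17 GST genes lie under 1 TPM.

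Among the CYP genes cyp2ad3 (34.4 ± 5.96 TPM) and cyp3a65 (32.2 ± 6.34 TPM), the only cyp3a gene among the members, led and did not differ beyond their spread. cyp3c1 (17.2 ± 2.53 TPM) followed, then cyp2y3 (9.08 ± 0.248 TPM), each clear of the next. cyp2v1 (5.45 ± 0.493 TPM) and cyp2ad2 (5.09 ± 1.48 TPM) were within each other's spread, and the median CYP gene had 1.30 TPM.

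UGT genes were low throughout. ugt1a1, which in humans conjugates bilirubin, had 6.69 ± 0.759 TPM and ugt2a7 had 6.03 ± 1.22 TPM, within each other's spread. ugt1b5 (4.68 ± 0.422 TPM) and ugt5b2 (3.73 ± 1.13 TPM) came next. The counts of ugt1a1 combine 11 annotated transcripts that share 1 gene ID, so the isoforms were not separated.

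SULT levels were led by sult4a1 (23.3 ± 6.18 TPM), an enzyme of the brain in mammals with little known activity, and by sult6b1 (13.5 ± 1.61 TPM). sult2st2 (8.89 ± 0.961 TPM) and sult2st1 (6.23 ± 0.876 TPM) of the steroid sulfotransferase family followed. Among the GST genes the pi class gstp1 (171 ± 12.6 TPM) stood above the alpha class gsta.1 (71.8 ± 11.3 TPM). The mu class gstm.1 (36.9 ± 3.998 TPM), the fish-specific rho class gstr (35.7 ± 5.82 TPM) and gstz1 (31.0 ± 2.29 TPM), an isomerase of tyrosine breakdown, were not separated from one another by their spread.

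Neighbouring genes of a family differed widely in level. The files place 11 CYP2 genes of the subfamilies N, AD, V, P and J within 101 kb of chromosome 20 (25515259 to 25615802, in coordinates whose genome build the labels do not name), and their Control levels ran from 0.590 TPM for cyp2p8 to 34.4 TPM for cyp2ad3. On chromosome 23, 10 cyp2aa genes within 201 kb (42292748 to 42493876) ran from 0.0833 TPM for cyp2aa9 to 3.24 TPM for cyp2aa6. The neighbours gstp2 and gstp1 on chromosome 14 (3495542 to 3514055) had 0.257 and 171 TPM. Each of these arrays was defined by gaps of at most 100 kb between genes of a family.

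Of all the comparisons made here the one between replicate numbers called the most members. Against the mean of replicates 2 and 3, replicate 1 had lower levels of 67 of the 84 tested members and higher levels of 2 at an adjusted p under 0.05 (edgeR quasi-likelihood test with group in the model, Benjamini-Hochberg over 18543 genes). Of all genes 29.0% fell and 27.4% rose in that comparison, so many genes differed, but for the members the differences went almost entirely one way. The median log2 difference was -0.90 over the members and 0.03 over all genes. By class it was -1.25 for SULT (14 of 16 fell), -1.09 for CYP (31 of 36 fell), -0.75 for UGT (10 of 16 fell) and -0.52 for GST (12 of 16 fell). These counts and medians include 4 tested members that are in the set through EtP libraries numbered 2 or 3, named below. They also include cyp2aa2, cyp2aa3, cyp2k8, cyp2p8, cyp2x8, cyp2x9, sult3st3, sult3st5 and sult5a1. These had at least 10 reads in fewer than 3 of the libraries numbered 1. They too met the rule on reads through libraries numbered 2 or 3. A lower level of such members in replicate 1 is no evidence of a difference.

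**Figure D2:**
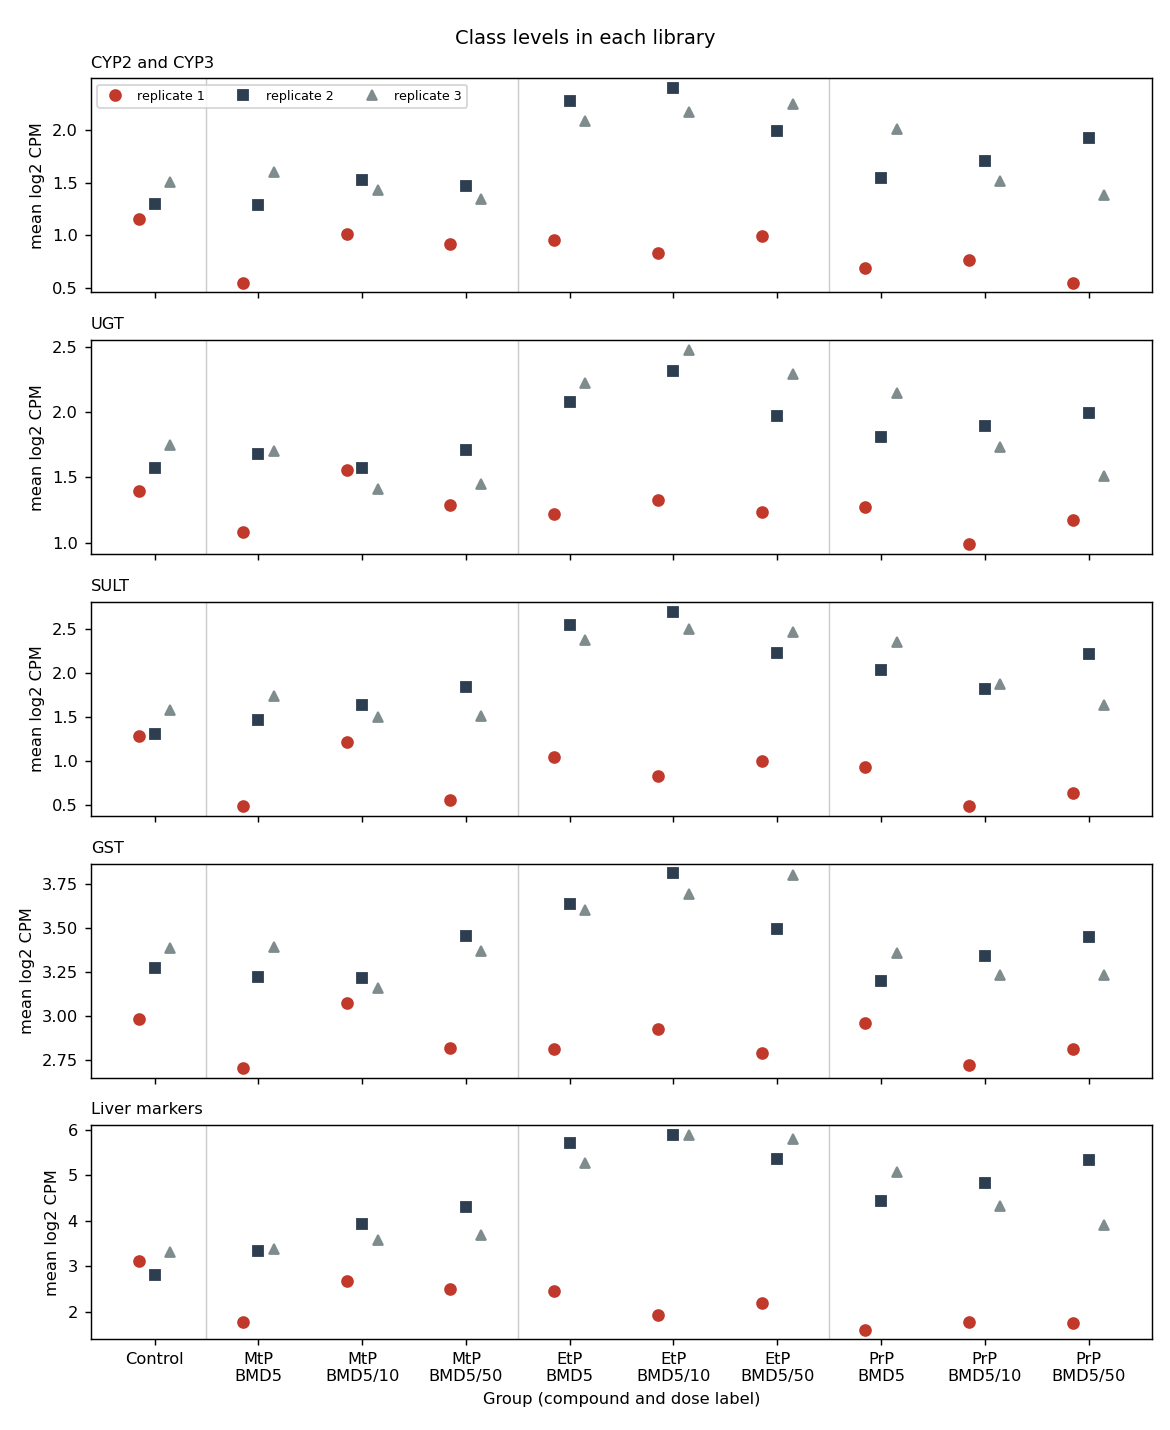
Mean log2 CPM (reads scaled to library size) of all members of each class, including those not tested, and of 23 liver markers, in each of the 30 libraries. Libraries are ordered by group, with replicate numbers as symbols. Members in the set through libraries numbered 2 or 3, such as cyp2x8, are included. For CYP, EtP replicates 2 and 3 lie at 1.99 to 2.40, above all Control and MtP libraries, while for CYP, SULT and GST replicate 1 is the lowest library of each treated group, for example 0.83 against 2.40 and 2.17 for CYP at EtP BMD5/10.

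The fall in replicate 1 covered scarce and abundant members. cyp2x8 had a log2 difference of -2.87 ± 0.54 (SE), cyp2p8 of -2.41 ± 0.31 and the phenol sulfotransferase sult1st3 of -2.38 ± 0.30. cyp2x8 and cyp2p8 are in the set through libraries numbered 2 or 3, so their values are no evidence of a difference. cyp3a65 fell by 1.93 ± 0.23 on the log2 scale (adjusted p = 3.68e-07, edgeR), ugt1a1 by 1.49 ± 0.19 (1.02e-06) and gsta.1 by 1.40 ± 0.14 (3.31e-08). Rising in replicate 1 were ugt1b7 (0.68 ± 0.16) and sult4a1 (0.15 ± 0.06). The 15 members that passed in neither direction included gstm.1 (-0.07 ± 0.06), the neighbouring gstm.2 (0.21 ± 0.12), cyp2aa4, ugt1b1 and ugt1b5.

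In 12 of the 84 members every one of the 9 treated libraries numbered 1 had a lower CPM than every one of the 18 treated libraries numbered 2 and 3, and in 0 members were they all higher. Among all genes 4.27% and 1.62% behaved so. The 12 were cyp2aa12, cyp2ad2, cyp2y3, cyp3a65, ugt1a1, ugt2a7, ugt5b4, sult3st2, sult6b1, gsta.1, gstk1 and gstt1a.

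Most markers of the digestive organs differed in the same direction. In replicate 1 all 23 tested liver markers (median log2 difference -2.50), all 17 intestine markers (-1.64) and 15 of 16 exocrine pancreas markers (-2.87) were lower at the adjusted threshold (edgeR), while 13 of 16 nervous system markers were higher (0.30). At that threshold 1 exocrine pancreas marker was higher and 3 nervous system markers were lower. Of 11 kidney tubule markers 4 were higher and 5 lower (median -0.10). These values pool all groups. For replicates 2 and 3 minus replicate 1 the liver marker median was 1.56 within MtP, 3.64 within EtP and 3.25 within PrP. Within Control, with 1 library against 2, it was 0.01, and it was 0.76 for intestine and 2.23 for exocrine pancreas markers. Libraries numbered 1 also gave a smaller share of reads to their 10 most abundant genes, 10.3 to 14.5%, where the others gave 15.2 to 27.7%. The part of organ content or library composition in the fall of the enzyme genes was not tested.

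Against Control no treated group had a member past the threshold, in any of the 9 comparisons (edgeR, smallest adjusted p of a member 0.999). The share of all genes called was 0.0% in each, and at an unadjusted p under 0.05 the members numbered between 0 and 13. No share of all genes is set beside the latter count, which is not read as a result. DESeq2 called 0 members too. Directions nonetheless differed between compounds. Averaged over the 3 dose names, 69 of 84 members lay above Control with EtP (median log2 difference 0.48), 54 with PrP (0.12) and 40 with MtP (-0.0027), beside 51.4%, 51.1% and 48.6% of all genes. These comparisons share the same 3 Control libraries.

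Single members that stood out in these averages without passing were cyp2aa4 with PrP (-0.69 ± 0.19) and cyp2k6 with MtP (-1.62 ± 0.57). For cyp2aa4, a P450 of a subfamily expanded in zebrafish, the Control libraries had 3.67, 5.56 and 4.61 CPM. With PrP the values were 2.75, 3.75 and 3.61 at BMD5, 2.45, 2.69 and 1.95 at BMD5/10, and 2.71, 3.35 and 2.64 at BMD5/50. The PrP and Control values overlapped only through PrP BMD5 replicate 2. For cyp2k6 Control had 2.96, 1.96 and 1.25 CPM, and MtP at most 1.53 CPM, in replicate 2 of BMD5/50, which overlapped. Low levels of cyp2k6 were not particular to MtP. Its unscaled reads were 42, 24 and 16 in Control and 3 to 23 with MtP. They were 2 to 28 with EtP and 3 to 27 with PrP, which also overlapped with Control. Over the 2 gene IDs that carry the symbol cyp2k6 the counts were summed.

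The steroid sulfotransferase family member sult2st3 lay slightly above Control with every compound at BMD5, by 0.26 ± 0.17 with MtP, 0.40 ± 0.17 with EtP and 0.36 ± 0.17 with PrP, without passing the test. Between BMD5 and BMD5/50 of a compound 0 of 84 members were called and 0.0% of all genes (edgeR). At an unadjusted p under 0.05 there was 1 member with EtP, ugt5f1 (-0.64, 95% interval -1.27 to -0.01), 1 with PrP, gstm.1 (-0.31, -0.59 to -0.04), and 0 with MtP. DESeq2 also called 0.

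Among the pairs of compounds, ethyl- and methylparaben had the largest median difference over the members, an order that was not tested. Averaged over the dose names, 74 of 84 members were higher with EtP than with MtP, with a median log2 difference of 0.44, against 52.9% of all genes and a median of 0.02. Of the members 38 had an unadjusted p under 0.05, but 0 passed the adjusted threshold in the model without replicate number (smallest adjusted p 0.107, edgeR), in which 0.00539% of all genes passed. Here and in other paragraphs, counts at an unadjusted p are given without the share of all genes. Such counts are not read as results about the members. Same-numbered libraries of the 2 compounds deviated together from their group means (correlations 0.63, 0.25 and 0.44 for numbers 1, 2 and 3), and with the number as a block 33 members passed, all of them higher with EtP, where 13.4% of all genes passed. The block takes the step between numbers to be the same in all groups. For some members that passed, such as gsta.1, gstr and sult6b1, this step differed between EtP and MtP (below). Adjusted p-values with the block hold only under that assumption. Without the 10 libraries numbered 1, 41 of 86 members passed, again all higher with EtP (19.7% of all genes, and 10.9% in that direction). That fit leaves out the libraries in which separated members went both ways (7 higher and 7 lower with EtP, below). Its counts, here and in later paragraphs, therefore describe replicates 2 and 3 alone.

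The rule on reads favours this direction for a few members. Of the 88 members 8 had 10 reads in fewer than 3 libraries outside EtP, and 4 of these were tested: cyp2k21, cyp2x10.2, ugt5d1 and sult1st2. They are in the set because of the EtP libraries, so their higher level with EtP is no evidence of a difference. Of the other 80 tested members 70 were higher with EtP (median 0.42), 30 passed with the block and 37 without replicate 1, a split made after the values were seen. Counts that set EtP against Control, against PrP or against MtP at single dose names do not leave these members out. Neither do the counts and medians between replicate numbers. The EtP libraries in which the 4 tested ones had 10 reads are all numbered 2 or 3. Their lower level in replicate 1 is therefore no evidence of a difference either.

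**Figure D3:**
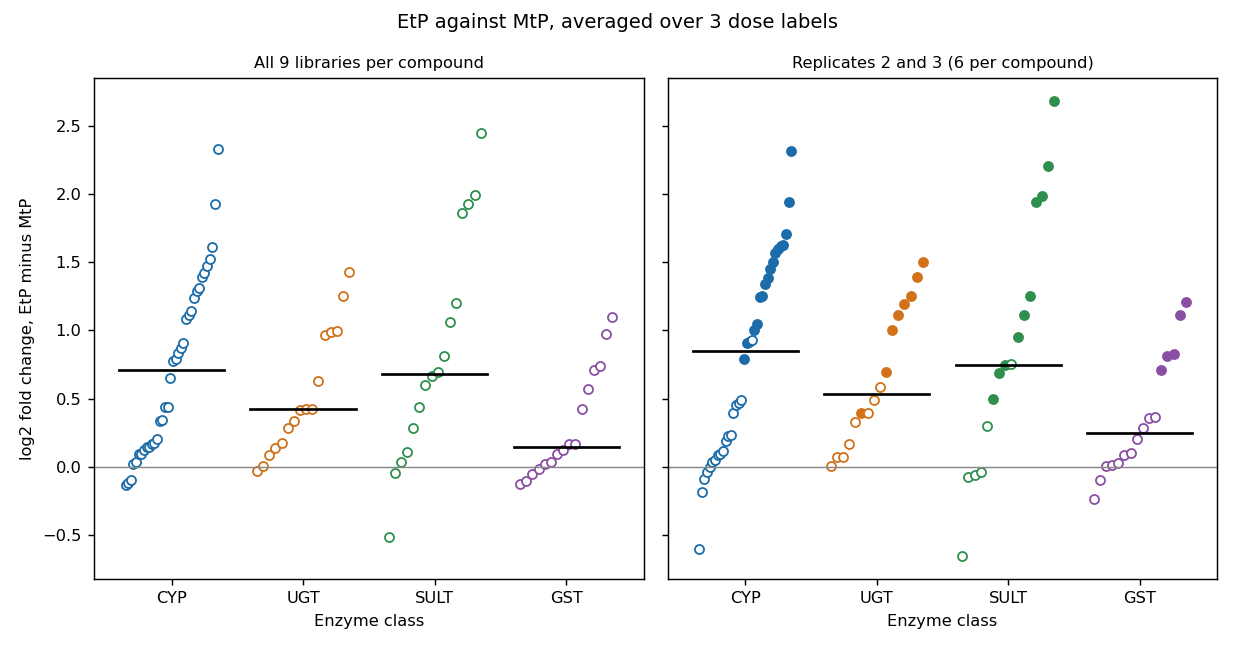
Log2 fold change of EtP against MtP, averaged over the 3 dose names, for each tested member by class, with all 9 libraries per compound (left) and with replicates 2 and 3 (right). Filled points passed an adjusted p of 0.05 (edgeR) and bars are class medians: 0 points are filled on the left and 41 on the right, and the medians of all libraries are 0.71 for CYP, 0.42 for UGT, 0.68 for SULT and 0.14 for GST. Shown are the 84 members tested with all libraries. Points and medians include 4 members in the set through their EtP libraries (cyp2k21, cyp2x10.2, ugt5d1 and sult1st2), all 4 of them filled on the right. Their higher level with EtP is no evidence of a difference.

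Among replicates 2 and 3 the separation was visible library by library. In 33 of 84 members all 6 EtP libraries had a higher CPM than all 6 MtP libraries, and in 0 were they all lower, where 6.24% and 4.35% of all genes did so. These were 14 CYP, 5 UGT, 10 SULT and 4 GST genes. The SULT genes include sult1st2, which is in the set through its EtP libraries. Of the 80 tested members that meet the rule on reads without EtP, 32 were separated in this way. In replicate 1 the same comparison, of 3 against 3 libraries, found 7 members higher and 7 lower, beside 12.6% and 15.9% of all genes.

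Of the CYP genes cyp3a65 showed the pattern at the highest level. Its Control libraries 1 to 3 had 41.1, 60.7 and 82.1 CPM. MtP gave 20.4 to 39.4 CPM in replicate 1 and 60.1 to 95.2 (median 81.6) in replicates 2 and 3. EtP gave 30.6 to 49.1 and 150 to 446 (median 223). The EtP libraries numbered 2 and 3 thus lay above all Control and MtP libraries, while those numbered 1 fell within the range of the others. The log2 difference between EtP and MtP was 1.52 ± 0.51 over all libraries (adjusted p = 0.155, edgeR), 1.30 with the replicate block (0.00300), and 1.63 ± 0.26 without replicate 1 (6.88e-04).

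Its relative cyp3c1 hardly differed (0.18 ± 0.15). The adjoining gene cyp3c4 on chromosome 3 differed by 1.31 ± 0.40 over all libraries (adjusted p = 0.140, edgeR) and 1.57 ± 0.23 without replicate 1 (4.99e-04). The same contrast between neighbours held in CYP2. Within the array of chromosome 20 the log2 difference was 1.61 ± 0.59 for cyp2p8, 1.47 ± 0.48 for cyp2p9 and 1.42 ± 0.46 for cyp2n13, but -0.12 ± 0.08 for the abundant cyp2ad3 and -0.13 ± 0.24 for cyp2p10. With the block 4 of its 11 genes passed (edgeR). For cyp2ad3 the 95% interval over all libraries was -0.28 to 0.04, and that of cyp3a65 was 0.48 to 2.57.

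The largest CYP difference was that of cyp2x8 on chromosome 25 (2.34 ± 0.76, adjusted p = 0.150; 0.00955 with the block), from 0 to 1.59 CPM in MtP to 0.187 to 5.60 CPM in EtP, followed by its neighbour cyp2x9 (1.92 ± 0.65). The third tested gene there, cyp2x7, had 0.12 ± 0.23. In the array of cyp2k genes on chromosome 3 (12710350 to 12802380) the log2 difference ran from 0.44 ± 0.42 for cyp2k8 to 1.24 ± 0.53 for cyp2k18 over 4 tested members, of which cyp2k19 (1.09 ± 0.41) passed with the block. cyp2k21, which entered through its EtP libraries, had 1.39 ± 0.38. The vitamin D hydroxylase gene cyp2r1 had 0.02 ± 0.39.

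Among the conjugating enzymes SULT genes showed the widest differences between EtP and MtP. sult1st2, of the phenol sulfotransferases, had a log2 difference of 2.45 ± 0.56, but 5 of its 7 libraries with 10 reads are EtP libraries, so the value describes how it came into the set. It was scarce: MtP libraries had 0.0739 to 0.465 CPM, and EtP libraries 0.0785 to 0.428 in replicate 1 and 0.709 to 2.86 in replicates 2 and 3. Its neighbours on chromosome 8, sult1st3 (1.93 ± 0.58) and sult1st1 (0.69 ± 0.27), met the rule on reads without EtP and passed with the block (adjusted p = 0.00182 and 0.00686, edgeR).

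The 3 sult3 genes within 18.2 kb of chromosome 22 (15323930 to 15342165) ran from 0.67 ± 0.50 for sult3st5 to 1.99 ± 0.53 for sult3st4. For sult3st2, which lies between these values at 1.07 ± 0.44, Control had 1.91, 1.88 and 2.66 CPM. EtP had 1.97, 7.24 and 7.33 CPM at BMD5, 1.099, 8.18 and 8.39 at BMD5/10 and 1.46, 5.68 and 5.50 at BMD5/50. The highest MtP library had 3.82 CPM and the highest PrP library 5.95, so EtP replicates 2 and 3 lay above all MtP libraries and overlapped with PrP. The abundant members sult6b1 and sult4a1 went apart: sult6b1 differed by 0.82 ± 0.30 (0.00309 as adjusted p with the block), and sult4a1 by 0.11 ± 0.08, with a 95% interval of -0.06 to 0.28.

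**Figure D4:**
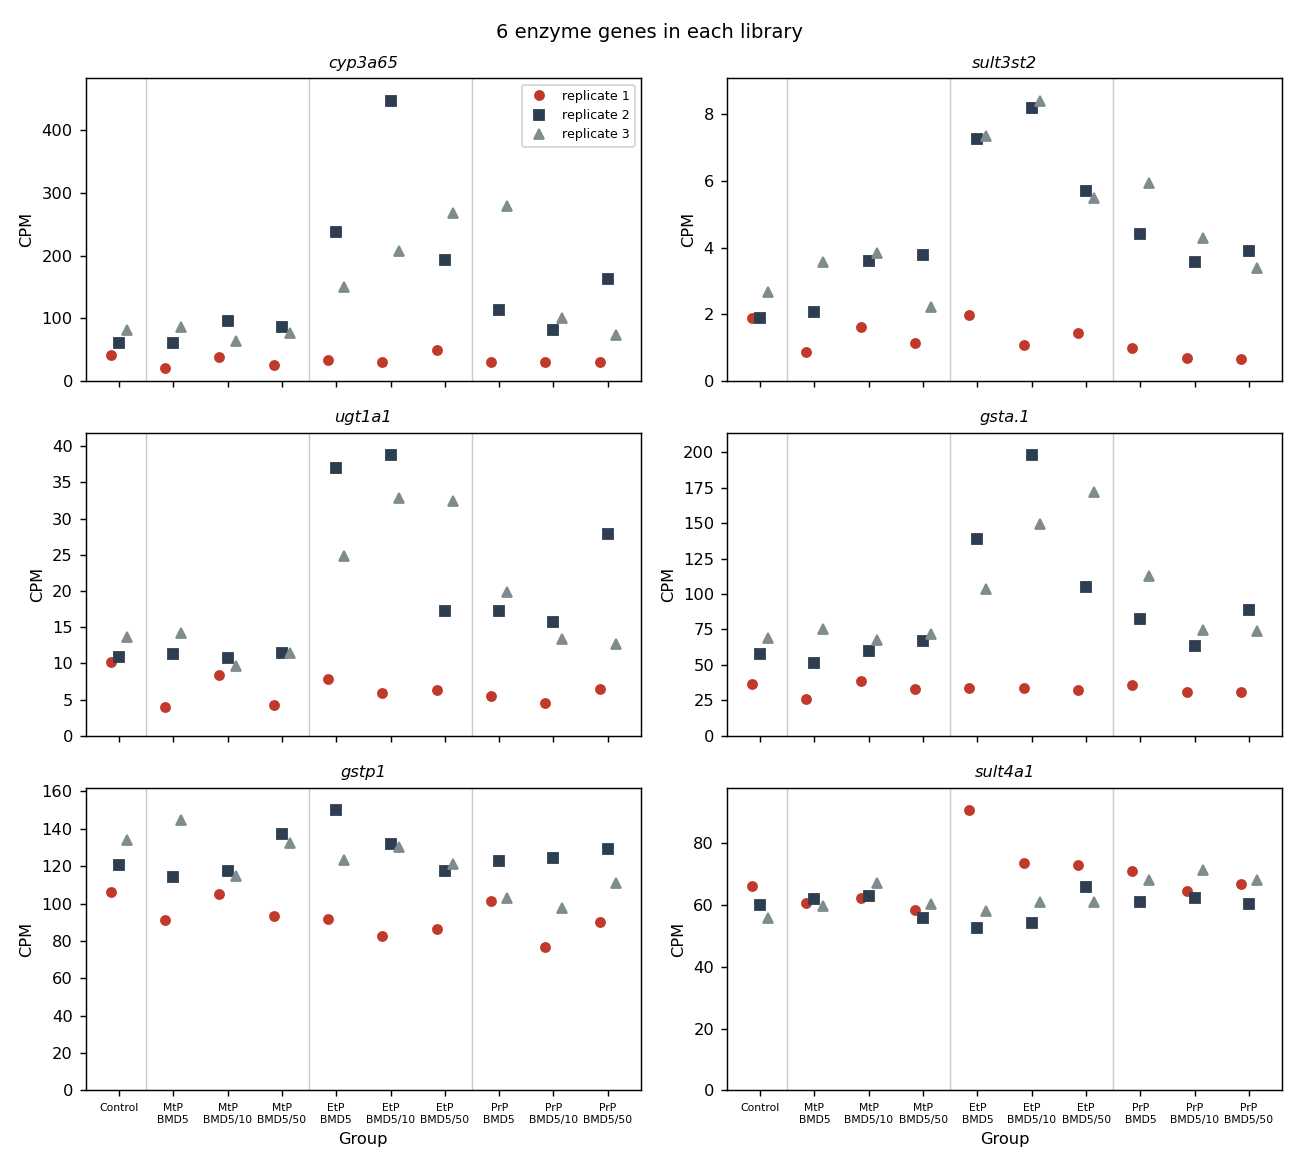
CPM of 6 members in each library by group, with replicate numbers as symbols. cyp3a65, sult3st2, ugt1a1 and gsta.1 reach their highest values in EtP replicates 2 and 3, at 150 to 446 CPM for cyp3a65. For each of these genes some PrP libraries overlap with EtP replicates 2 and 3. In contrast gstp1 and sult4a1 stay in a narrow range, 52.4 to 90.6 CPM in EtP for sult4a1, whose highest library is EtP BMD5 replicate 1.

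UGT genes followed with smaller differences. For ugt1a1 Control had 10.2, 10.9 and 13.7 CPM. In MtP its level was 3.94 to 8.43 in replicate 1 and 9.68 to 14.2 in replicates 2 and 3. In EtP it was 5.89 to 7.87 and 17.2 to 38.7, so EtP replicates 2 and 3 stood above all Control and MtP libraries. The difference was 1.25 ± 0.40 (adjusted p = 0.147, edgeR; 0.00283 with the block). ugt2a4 (0.99 ± 0.28) and ugt5b4 (0.99 ± 0.39) also passed with the block, as did ugt2a7 (0.42 ± 0.19). The symbol ugt2a7 joins 2 gene IDs, with 0.31 ± 0.17 and 0.72 ± 0.34 over all libraries. Neither passed, and they were not tested apart with the block. ugt5b2 had 0.43 ± 0.32 over all libraries and did not pass with the block, but passed without replicate 1 (0.70 ± 0.17, adjusted p = 0.0100, edgeR). Its symbol joins 2 gene IDs that went apart: over all libraries the ID with 1281 reads had 1.13 ± 0.48 and the ID with 1739 reads -0.06 ± 0.25, and neither passed. The 3 tested genes of the ugt1b array on chromosome 11 (30295582 to 30330015) had -0.03 to 0.14 and passed neither with the block nor without replicate 1.

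GST genes differed within and between subclasses. The alpha class pair on chromosome 13, gsta.1 (0.97 ± 0.36) and gsta.2 (1.097 ± 0.35), was higher with EtP and passed with the block (adjusted p = 0.00261 and 0.00599, edgeR), as did gstt1a, gsto2, gstr and gstm.3. Their array neighbours gsto1 (0.02 ± 0.22), gstm.1 and gstm.2 did not pass, and gstm.3 passed with the block but not without replicate 1. gsta.1 had 103 to 198 CPM in EtP replicates 2 and 3, against 51.5 to 75.6 in those of MtP and 57.8 and 68.9 in those of Control. In replicate 1 EtP had 32.0 to 34.0 CPM and MtP 26.2 to 39.0, which overlapped. gstp1, the most abundant member, had a difference of -0.02 (95% interval -0.28 to 0.25), and gstm.1 of -0.05 (-0.21 to 0.11). gstcd, which holds only a GST C-terminal domain and is not a classical transferase, had -0.13 ± 0.11.

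At single dose names 0 members passed between EtP and MtP with all libraries (0.0% of all genes). Without replicate 1, 22 passed at BMD5/10 (edgeR; 2.56% of all genes), led by gsta.1 (1.44 ± 0.24) and ugt2a4 (1.76 ± 0.28). At BMD5 only sult3st2 passed (1.34 ± 0.27) and at BMD5/50 0 did, although 67 of 84 members were higher with EtP there over all libraries and 4 had an unadjusted p under 0.05. For BMD5 and BMD5/50 these counts have no share of all genes beside them and are not read as results about the members. Whether the dose names differ in this respect was not tested.

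Members were also higher with EtP than in Control in replicates 2 and 3. Averaged over the dose names 18 of 86 members passed, all higher with EtP, where 3.09% of all genes passed (edgeR). They comprised 7 SULT, 5 CYP, 4 GST and 2 UGT genes. Members in the set through their EtP libraries, such as sult1st2, were not left out of the counts in this paragraph. For such members a higher level with EtP is no evidence of a difference. The smallest adjusted p were those of sult3st2 (1.59 ± 0.25, 0.00501) and gsta.1 (1.15 ± 0.21, 0.00971), and cyp3a65 had 1.76 ± 0.40 (0.0273). This fit has 2 Control libraries. By dose name 17 members passed at BMD5/10 (2.08% of all genes) and 2 each at BMD5 (0.361%) and BMD5/50 (0.636%).

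In the medians over all tested members propylparaben lay between the others. This did not hold in each class. At BMD5, BMD5/10 and BMD5/50 the mean log2 CPM of the GST genes was 3.17, 3.10 and 3.16 with PrP. With MtP it was 3.11, 3.15 and 3.21. Over all libraries 74 of 84 members were lower with PrP than with EtP (median -0.37) and 52 of 84 higher than with MtP (median 0.12), with 0 passing in either comparison and 0.0% of all genes (edgeR). Without replicate 1, 10 members were lower with PrP than with EtP (1.47% of all genes), among them gsta.1 (-0.78 ± 0.14), cyp2aa8 (-1.85 ± 0.34), sult6b1 (-0.66 ± 0.13) and ugt1a1 (-0.77 ± 0.18). Against MtP the only member to pass was cyp3c3 (0.95 ± 0.20, adjusted p = 0.0481, edgeR, where 0.499% of all genes passed). Its symbol joins 2 gene IDs, which were not tested apart without replicate 1. In the difference of EtP and MtP between replicates 2 and 3 and replicate 1 these IDs went apart (1.25 ± 0.47 and -1.14 ± 0.53), and neither passed. With edgeR, then, members passed as higher with the ethyl than with the methyl ester with the block and without replicate 1. As higher with the ethyl than with the propyl ester they passed without replicate 1 and not with the block. In the model of all libraries without the block 0 passed in either comparison. cyp3a65 ran from 73.2 to 278 CPM in PrP replicates 2 and 3, with the highest value in BMD5 replicate 3, a library in which the 10 most abundant genes took 27.7% of the reads, against 10.3 to 18.4% in the others.

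For some members the step between replicate numbers was itself larger with EtP than with MtP. Within EtP 65 of 84 members differed between replicates 2 and 3 and replicate 1 (62 higher and 3 lower, 46.8% of all genes), within PrP 51 (41.1%) and within MtP 34 (28.1%), all higher. Within Control, with 1 library against 2, it was 0 (0.21%, and 11 members at an unadjusted p under 0.05). Medians were 1.18, 1.11, 0.68 and 0.31 on the log2 scale. Members in the set through their EtP libraries (cyp2k21, cyp2x10.2, ugt5d1 and sult1st2) are included, and their step within EtP is no evidence of a difference. Included as well are the members, such as cyp2x8, that met the rule on reads through libraries numbered 2 or 3. Their step is no evidence of a difference either. Testing the difference itself, edgeR called 13 members between EtP and MtP, 11 of them with a larger step with EtP, where 9.29% of all genes were called. Among these were gsta.1, cyp3c4, cyp2k18, ugt5b2 and sult6b1, of which ugt5b2 did not pass when its gene IDs were tested apart. The count was 2 to 7 without replicate 1 of any EtP group, of MtP BMD5/10 or of MtP BMD5/50. It thus depends on single libraries and, beside the share of all genes, is not read as a result about the members as a set. Within MtP the count was 13 without MtP BMD5 replicate 1 and 16 without MtP BMD5/50 replicate 1. Between PrP and MtP 0 members were called (0.458% of all genes, 16 members at an unadjusted p under 0.05, and 2 by DESeq2), and between PrP and EtP 3 were (5.24%). The last count was 0 or 1 when any of 9 libraries was left out.

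**Figure D5:**
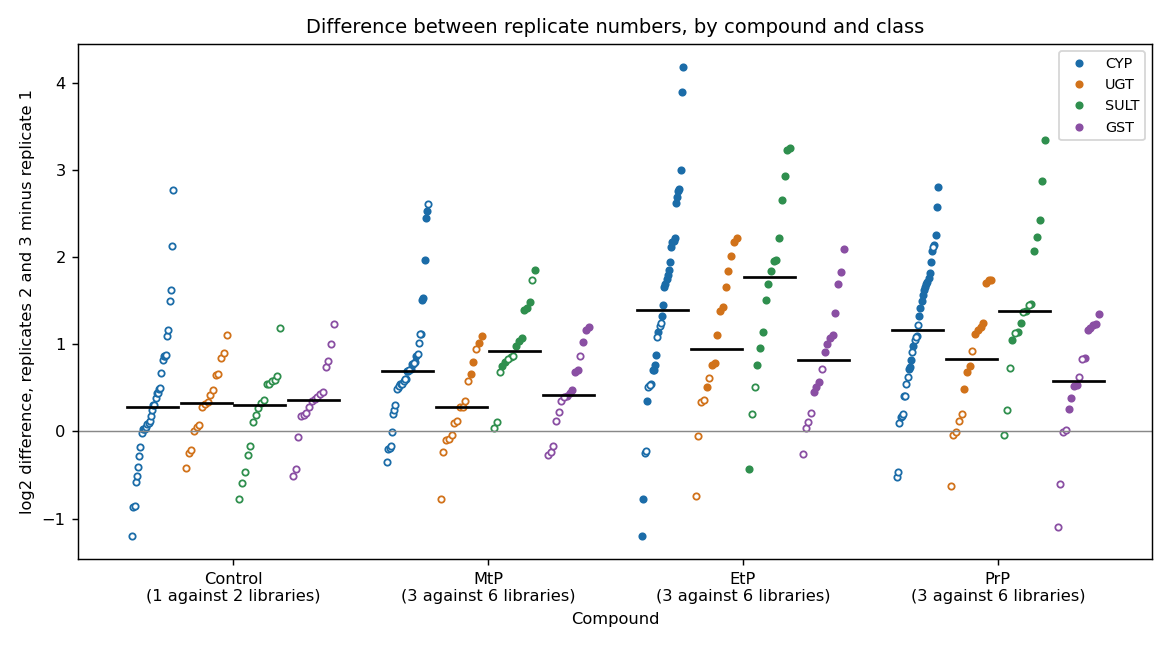
Log2 difference between replicates 2 and 3 and replicate 1 within each compound, for each tested member by class. Filled points passed an adjusted p of 0.05 (edgeR) and bars are class medians, which for SULT are 0.30 in Control, 0.92 in MtP, 1.77 in EtP and 1.38 in PrP. Members in the set through their EtP libraries numbered 2 or 3, such as sult1st2, are included. So are others in the set through libraries numbered 2 or 3, such as cyp2x8.

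Genes around the enzymes are set beside the shares of all genes, of which 52.9% were higher with EtP than with MtP and 13.4% passed with the block. Of 20 tested regulators of drug metabolism genes 15 were higher with EtP than with MtP (median 0.23), and 3 passed with the block, namely nfe2l2b (1.02 ± 0.23), an Nrf2 relative of the oxidative stress response, hnf4a (1.36 ± 0.41), a liver and gut transcription factor, and the bile acid receptor gene nr1h4 (0.78 ± 0.36). The xenobiotic receptor gene nr1i2 had 0.55 ± 0.40 and did not pass, and ahr2, the dioxin receptor, had 0.26 ± 0.16. Of 24 genes for redox partners and cosubstrates 20 were higher (median 0.10) and 5 passed with the block. These included ugdh, which makes UDP-glucuronic acid (0.52 ± 0.17), and papss2a, which makes PAPS (0.79 ± 0.31), but not gclc of glutathione synthesis (0.04 ± 0.07). For both lists the share that passed lies near that of all genes or rests on few genes, and is not read as a result about them. Other phase I enzymes were higher in 23 of 25 (median 0.49, 8 passed with the block), including the carboxylesterase ces2b (0.94 ± 0.29) and cyp1a (1.03 ± 0.34). Of 14 other conjugating enzymes 13 were higher (median 0.19) and 3 passed, again few genes beside the share of all genes. Of 24 transporters 19 were higher (median 0.24), with 5 higher and 1 lower passing, which included abcc2, an exporter of conjugates (1.03 ± 0.33), and is likewise not read as a result about transporters. In the model without the block 0 genes of these lists passed.

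Markers of the digestive organs were higher with EtP as well, with larger median differences than the enzyme genes. All 23 tested liver markers were higher with EtP than with MtP (median 1.93, 22 passing with the block). The same held for 17 of 17 intestine markers (1.43, 15 passing) and 15 of 16 exocrine pancreas markers (1.61, 4 passing), but for 7 of 11 kidney tubule markers (0.26, 3 higher and 1 lower passing) and 6 of 16 markers of the nervous system (-0.06, 1 higher and 5 lower passing). The summed CPM of the liver markers was 3388 to 5082 in EtP replicates 2 and 3, 1036 to 1927 in those of MtP, 1471 to 3750 in those of PrP, and 859 and 1062 in those of Control. In replicate 1 it was 400.2 to 576 with EtP, 345 to 638 with MtP, 299 to 430 with PrP and 917 in Control. None of the tested markers was at 0 in all libraries. Intestine markers summed to 1078 to 2143 CPM in EtP replicates 2 and 3 and 444 to 751 in those of MtP. The part of organ content in the differences of the enzyme genes was not tested.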

How the data were processed

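The deposited table holds, for each of 30 libraries, read counts per transcript and TPM, per the file headers. Which aligner, counting tool, genome build, annotation and strand setting were used is not stated there or in the labels. The 30 RPKM columns were not used. Per the labels' protocols RNA was extracted from whole larvae with RNAzol. Here the deposited counts and the deposited TPM of 59876 transcripts were summed to 31846 symbols, of which 533 combine several gene IDs. These include cyp2k6, cyp2y3, cyp3c3, cyp2x10.2, ugt2a7, ugt5b2, sult3st3 and gstk4.

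Genes were filtered with filterByExpr in edgeR 4.0.16 (minimum count 10) in R 4.3.3, leaving 18543, scaled by TMM and tested with the quasi-likelihood F-test in 1 model over all 10 groups, with Benjamini-Hochberg adjustment over all tested genes and a threshold of 0.05. Intervals are 95%. The comparison of replicate 1 with replicates 2 and 3 and the steps within compounds used models with the replicate number. The step within Control rests on 1 library against 2. The fitting procedure was tested on simulated data. For comparisons of groups the simulated counts held no step between replicate numbers, so they do not show how such a step affects these fits. CPM values were computed from the counts. DESeq2 1.42.0, RLE scaling, no filter, fits of only the groups compared, sums per gene ID, the replicate block and leaving out libraries were alternatives. In 19 of 27 comparisons checked, same-numbered libraries deviated together from their group means with every correlation over 0.1. The pairing rests on these data and not on the labels, and for EtP against MtP over all dose names the correlations were 0.63, 0.25 and 0.44.

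The members and the gene lists were chosen with earlier results of these data known. Named members were, per comparison, up to 10 with the smallest p among those passing; the 3 with the highest Control TPM per family; the member with the smallest p per family against Control; and members of known role. From the gene lists the 3 genes with the smallest p were eligible. Other genes named in the text were chosen after their values were seen.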

Additional observations from a re-analysis of the deposited data

Results flagged for a closer look

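For the members below, differences between compounds in the step from replicate 1 to replicates 2 and 3 passed a test of the difference itself (edgeR interaction term, adjusted over all genes). They are log2 differences between steps with their SE. Leaving out EtP BMD5/10 replicate 1 lowered the count of members from 13 to 2 between EtP and MtP. Without EtP BMD5 replicate 1 the count between PrP and EtP fell from 3 to 0. Beside the shares of all genes given above, the list is not read as a result about the members as a set.

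With EtP the step was larger than with MtP for gsta.1 by 1.07 ± 0.23 (adjusted p = 0.00696), cyp3c4 by 2.16 ± 0.51 (0.0117), cyp2k18 by 2.75 ± 0.66 (0.0128), ugt5b2 by 1.49 ± 0.36 (0.0138) and sult6b1 by 0.90 ± 0.23 (0.0161). It was also larger for ugt2a4 by 1.38 ± 0.35 (0.0182), cyp2x7 by 1.33 ± 0.35 (0.0216), ugt1b5 by 0.60 ± 0.18 (0.0364), gstr by 0.70 ± 0.21 (0.0377), cyp2j20 by 0.93 ± 0.29 (0.0450) and cyp2k16 by 1.22 ± 0.39 (0.0488). For sult4a1 (-0.46 ± 0.11, 0.0156) and cyp2p10 (-1.30 ± 0.37, 0.0307) the sign was the opposite. For ugt5b2 the 2 gene IDs tested apart had 1.95 ± 0.62 (adjusted p = 0.0505) and 1.02 ± 0.37 (0.0837).

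Between PrP and EtP the step differed for cyp2aa7 (2.52 ± 0.65, adjusted p = 0.0278), cyp3c4 (-1.79 ± 0.51, 0.0443) and sult4a1 (0.39 ± 0.11, 0.0494). In replicate 1 of EtP sult4a1 had 72.8 to 90.6 CPM, above the 52.4 to 65.7 CPM of EtP replicates 2 and 3.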

How the results depend on the processing

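Without the libraries numbered 1 the count of members passing rose from 0 to 2 for EtP BMD5, 17 for EtP BMD5/10, 2 for EtP BMD5/50 and 18 for EtP averaged against Control, to 1 and 22 for EtP against MtP at BMD5 and BMD5/10, to 41 averaged, to 1 for PrP against MtP and to 10 for PrP against EtP. For EtP against MtP averaged, the replicate block gave 33 and DESeq2 5; the block changed no other count of calls. DESeq2 called 2 and 5 members in the steps of PrP against MtP and against EtP. No share of all genes called by DESeq2 is set beside its counts, which are not read as results about the members. The causes of these changes were not tested. Leaving out a library each gave 0 to 1 for EtP against MtP averaged (sult1st2, in the set through its EtP libraries, without EtP BMD5/10 replicate 1), 2 to 16 for the step of EtP against MtP, 0 to 4 for that of PrP against EtP and 13 to 40 for the step within MtP. RLE scaling, no filter, fits of only the groups compared and sums per gene ID moved no count by over 1.5 times. Leaving out the members that need the EtP libraries for the rule on reads, chosen after seeing the data, left 0 for EtP against MtP averaged. Under RLE scaling the largest shift of the all-gene median was 0.0198.

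Members near 0 between EtP and MtP changed sign: gstp1 (0.012) and sult4a1 (-0.074) without replicate 1, ugt1b5 (-0.0031) and gsto1 (-0.043) with the block. ugt5b2, not near 0, changed sign from 0.43 to -0.058 when its gene ID with most reads stood alone. Leaving out a library gave -0.080 to 0.044 for gstp1, -0.060 to 0.066 for ugt1b5, -0.013 to 0.63 for cyp2k6, -0.16 to 0.27 for cyp2r1, -0.17 to 0.11 for gsto1 and -0.043 to 0.089 for gstk1. Ordered by CPM instead of TPM, cyp3a65 stood above cyp2ad3 and ugt1b5 above ugt1a1. Scarce members rest on few reads: 4 of the 88 were too low to be tested with all libraries.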
